A study of Mus musculus with 6 samples.

Results

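CD300, TREM and PILR proteins are cell surface receptors of the immunoglobulin superfamily that occur on myeloid cells as pairs or groups of closely related members, of which some activate and some inhibit. Measured here were transcripts of 10 such receptors, chosen by symbol from the 46603 genes of a table of raw counts. The members were Cd300a, Cd300lb, Cd300ld, Cd300lf, Cd300lg, Trem1, Trem3, Treml4, Pilra and Pilrb1, and all 10 passed the filter on low counts. CD11B+ cells had been taken with magnetic beads from kidneys of male mice aged 10 to 12 weeks, 3 days after ischemia reperfusion acute kidney injury (IRI-AKI, bilateral pedicle clamping that lasted 28 minutes). All 6 mice carried Rosa26-LSL-RARaT403X, a truncated dominant-negative retinoic acid receptor that is silent until Cre acts. In 3 PTEC DN RAR mice PEPCK-Cre switched it on in proximal tubular epithelial cells (PTECs), and the 3 Cre– controls had no PEPCK-Cre. The allele is thus aimed at tubules and not at the sorted cells, and the comparison asks how these receptors differ in renal myeloid cells when retinoic acid signaling is blocked in the epithelium. Uninjured mice were not analyzed here, so levels cannot be set against the state before injury.

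Activating members have short cytoplasmic tails and signal through the adaptors DAP12 (Tyrobp) or FcRγ (Fcer1g), which recruit the kinase Syk. Inhibitory members carry tyrosine motifs in long tails that recruit the phosphatases SHP-1 (Ptpn6) and SHP-2. TREM1 is known as an amplifier of inflammation on neutrophils and monocytes, and several CD300 receptors bind phospholipids exposed on dying cells, which are abundant in an injured kidney.

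The members lie on 3 chromosomes of the mouse genome (GRCm38, gene models of GENCODE M21), and all are annotated as protein coding. Cd300a (chr11:114890041-114904654, plus strand), Cd300lb (chr11:114922781-114934386, minus strand), Cd300ld (chr11:114982274-114989922, minus strand) and Cd300lf (chr11:115116214-115133992, minus strand) form a cluster on chromosome 11, and Cd300lg (chr11:102041509-102055620, plus strand) lies apart from it on the same chromosome. Trem1 (chr17:48232768-48246924), Trem3 (chr17:48247777-48258841) and Treml4 (chr17:48264295-48275360) follow each other on the plus strand of chromosome 17. Pilra (chr5:137821952-137836281) and Pilrb1 (chr5:137852147-137858106) are neighbors on the minus strand of chromosome 5.

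Paired receptors share sequence, which bears on how well reads can be assigned to them. The inhibitory Pilra and the activating Pilrb1 and Pilrb2 begin almost alike. Their first 120 coding bases are shown with the bases that differ from Pilrb1 in capitals, numbering 3 in Pilra and 10 in Pilrb2.
Pilra: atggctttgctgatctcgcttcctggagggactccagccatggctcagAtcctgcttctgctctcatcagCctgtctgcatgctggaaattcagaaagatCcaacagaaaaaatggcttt
Pilrb1: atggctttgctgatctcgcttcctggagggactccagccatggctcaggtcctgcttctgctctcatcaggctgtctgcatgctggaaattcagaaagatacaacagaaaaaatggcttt
Pilrb2: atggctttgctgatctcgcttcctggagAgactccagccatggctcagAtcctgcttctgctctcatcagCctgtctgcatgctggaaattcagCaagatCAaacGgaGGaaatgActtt
Over the aligned coding bases identity was 83.3% between Pilra and Pilrb1 and 93.5% between Pilrb1 and Pilrb2. The coding sequence of Pilra has 906 bases against 675 in Pilrb1, so the inhibitory member is the longer. A second such pair is the activating Cd300ld (663 coding bases) and the inhibitory Cd300lf (1011 coding bases), with 80.5% identity over 660 aligned bases. Their longest identical stretch is 134 bases long and is shown because no read inside it tells the activating from the inhibitory receptor.
Cd300ld bases 210 to 343 and Cd300lf bases 213 to 346: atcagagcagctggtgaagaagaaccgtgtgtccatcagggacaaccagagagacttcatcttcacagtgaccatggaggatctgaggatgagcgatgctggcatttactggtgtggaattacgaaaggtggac
Of all 50-base windows of its transcripts, 32.2% in Pilrb1 and 20.8% in Pilra also occurred in a transcript of another gene. The share was 3.89% in Cd300ld, 3.45% in Cd300a, 2.44% in Cd300lf and 0.141% in Cd300lg, and it was 0 in Cd300lb, Trem1, Trem3 and Treml4. The read length is not given in the sources used here, and with 100-base windows the shares were smaller, at 12.0% in Pilra, 3.53% in Pilrb1, 1.38% in Cd300ld, 0.849% in Cd300a and 0.644% in Cd300lf. Reads that fit more than 1 place were left out of the deposited counts, so counts of members with shared windows may be incomplete. The genes sharing windows with Pilra include Zcwpw1, which overlaps it at the same place. In addition, 15.1% of the exon bases of Pilra overlap Zcwpw1 and 4.96% of those of Pilrb1 overlap Gm36551, each on the opposite strand. Whether counting used strand is not given in the sources used here, so reads of such overlapping exons could not be assigned with certainty.

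Libraries held from 29318041 to 46517005 gene counts, and 3 counts, the limit that a count of 0 allows, equaled from 0.0645 to 0.102 CPM (counts scaled to library size, here before TMM normalization). All other CPM values are given after TMM normalization. The lowest count of any member in any library was 245, and intervals or limits of this kind cover counting error only. Itgam, which encodes CD11B, was at 1737, 1959 and 1995 CPM in Cre– controls and at 1366, 1303 and 980.3 CPM in PTEC DN RAR mice (edgeR's quasi-likelihood test, log2 fold change -0.64, SE 0.14, Benjamini-Hochberg adjusted p = 0.00818). The gate's own transcript was thus present at high levels in all 6 libraries and lower in PTEC DN RAR mice. Of its exon bases, 68.7% overlap Gm49368 on the same strand, so reads there could not be assigned with certainty and its level is a lower estimate. Rara, whose mutant form the allele encodes, differed by -0.33 on the log2 scale (SE 0.13, adjusted p = 0.0628 in the same edgeR test), and because the allele is switched on in tubules this value does not check the genotype of the sorted cells. Transcripts of other cells were also present. All 12 proximal tubule genes of a fixed list were higher in PTEC DN RAR mice in edgeR's test (summed level 2215 to 3414 CPM against 943 to 1114 CPM), as were all 10 endothelial genes (281 to 343 CPM against 93.9 to 139 CPM). In bulk RNA of this kind, fewer cells of a type and less RNA per cell cannot be told apart.

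Of the 10 members, 5 were lower in PTEC DN RAR mice and 0 were higher at an adjusted p under 0.05 (edgeR's quasi-likelihood test). Across the 15440 genes tested, 17.1% were lower and 23.6% were higher. The members that fell were the activating Cd300lb, Trem1 and Pilrb1 and the inhibitory Cd300lf and Pilra, so both kinds of signal were among them. In all 5 of these the 3 PTEC DN RAR libraries lay below all 3 control libraries, against 24.2% of all genes tested, and in Cd300lg they lay above, against 29.2%. The median log2 fold change was -0.47 over the members and 0.04 over all genes. When libraries were scaled on 25 pan-leukocyte genes in place of TMM, these medians were -0.27 and 0.23. The 25 genes themselves had a median log2 fold change of -0.20 under TMM. Of all genes, 7745 had an unadjusted p under 0.05 in the same fit.

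**Figure D1:**
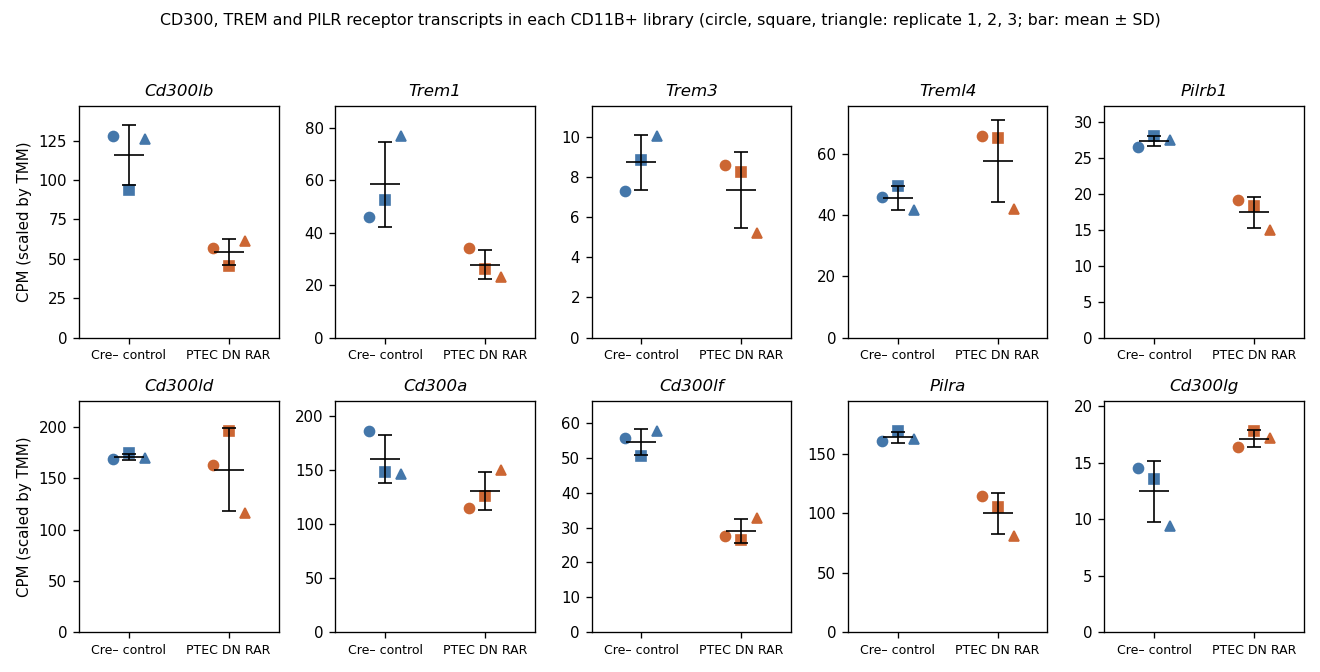
CPM of the 10 receptor genes (vertical axes, starting at 0) in the 3 Cre– control (blue) and 3 PTEC DN RAR (orange) libraries, with replicates 1, 2 and 3 as circle, square and triangle and the mean ± SD in black. The groups are apart in Cd300lb, Trem1, Pilrb1, Cd300lf and Pilra, with lower values in PTEC DN RAR mice, and in Cd300lg with higher values, whereas they overlap in Trem3, Treml4, Cd300ld and Cd300a.

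Relative to exon length, the order of levels in Cre– controls ran from Cd300ld (64.7 CPM per kb of exon) and Pilra (53.0) through Cd300lb (39.7), Cd300a (33.8), Treml4 (22.8), Trem1 (19.5), Pilrb1 (14.0), Cd300lf (10.6) and Trem3 (8.79) to Cd300lg (4.56). In PTEC DN RAR mice Cd300ld was again at the top (60.0 CPM per kb), followed by Pilra (32.3), Treml4 (28.9) and Cd300a (27.5). Cd300lb (18.7 CPM per kb) now came after Treml4 and Cd300a, and it was followed by Trem1 (9.29), Pilrb1 (8.91), Trem3 (7.41), Cd300lg (6.26) and, in last place, Cd300lf (5.62). Levels of Pilra and Pilrb1 may be lower estimates, because of the reads left out.

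Cd300lb and Trem1 had the lowest fold changes of the activating members, and their order changed when single libraries were left out. Cd300lb encodes a DAP12-coupled receptor known to bind TIM1 (also called KIM1) and phospholipids. Its level was 128, 94.0 and 126 CPM in Cre– controls and 57.1, 45.3 and 61.0 CPM in PTEC DN RAR mice. The lowest control was above the highest PTEC DN RAR library. The mean fell from 116 ± 19.0 to 54.5 ± 8.16 CPM (SD, n = 3 each), which is 2.13-fold lower (edgeR log2 fold change -1.09, SE 0.15, adjusted p = 0.00105).

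Trem1 was at 45.8, 52.5 and 76.7 CPM in Cre– controls and at 34.1, 26.1 and 23.2 CPM in PTEC DN RAR mice. The groups did not overlap, but controls varied widely, and control 3 stood above the other 2. The mean fell from 58.3 ± 16.3 to 27.8 ± 5.64 CPM, which is 2.10-fold lower (edgeR log2 fold change -1.07, SE 0.21, adjusted p = 0.00453). Its neighbor Trem3, another DAP12-coupled receptor, was at 7.33, 8.86 and 10.0 CPM in Cre– controls and 8.63, 8.27 and 5.19 CPM in PTEC DN RAR mice. These groups overlapped, with only PTEC DN RAR 3 below the control range (edgeR log2 fold change -0.25, SE 0.22, adjusted p = 0.387). The log2 fold change was -0.091 without that library, -0.38 without PTEC DN RAR 1 and -0.065 under pan-leukocyte scaling.

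Neutrophil genes were lower as well. Of 10 neutrophil genes of a fixed list, 5 were lower and 0 higher (edgeR, adjusted p under 0.05), and their summed level was 325 to 673 CPM in Cre– controls and 174 to 261 CPM in PTEC DN RAR mice. S100a8, which encodes a subunit of calprotectin, was at 88.3, 149 and 189 CPM in Cre– controls and 77.5, 50.3 and 42.4 CPM in PTEC DN RAR mice. Its order over the 6 libraries matched that of Trem1, highest in control 3 and lowest in PTEC DN RAR 3. Retnlg was at 14.7, 26.4 and 35.7 CPM against 16.1, 15.3 and 11.6 CPM, and Ly6g, the defining surface marker, was below 2 CPM in every library (0.282, 1.54 and 1.55 CPM against 0.358, 0.518 and 0.339 CPM). Averaged over the list, log2 CPM was 3.21, 3.81 and 4.10 in Cre– controls against 3.12, 2.89 and 2.63 in PTEC DN RAR mice (two-sided exact permutation p = 0.1, the smallest that 3 mice against 3 can give). The part of neutrophil RNA in the difference in Trem1 was not tested.

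Treml4, a DAP12-coupled receptor known from Ly6C-low monocytes and splenic macrophages, had its highest levels in 2 of the 3 PTEC DN RAR libraries. It was at 45.8, 49.4 and 41.5 CPM in Cre– controls and 65.7, 65.1 and 42.1 CPM in PTEC DN RAR mice. PTEC DN RAR 1 and 2 lay above all controls and PTEC DN RAR 3 within them, and the difference did not pass the test (edgeR log2 fold change 0.34, SE 0.17, adjusted p = 0.134). Without PTEC DN RAR 3 the log2 fold change was 0.48 (edgeR adjusted p = 0.0119), and under pan-leukocyte scaling it was 0.52 (adjusted p = 0.0152). Without control 3 it was 0.23 (adjusted p = 0.408 in the same test). The same library stood apart in Ly6C-low monocyte genes, whose mean log2 CPM over 5 genes was 6.64, 6.93 and 6.81 in Cre– controls against 7.42, 7.41 and 6.91 in PTEC DN RAR mice (exact permutation p = 0.2). Of these 5 genes, 2 were higher and 0 lower (edgeR), with a summed level of 794 to 876 CPM in Cre– controls and 881 to 1194 CPM in PTEC DN RAR mice. Their log2 fold changes ran from -0.20 to 1.03, so not all of them rose. Adgre4, one of them, was at 58.7, 79.6 and 72.6 CPM against 100.01, 114 and 67.6 CPM (edgeR log2 fold change 0.42, adjusted p = 0.108).

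Cd300ld, an activating receptor that couples to FcRγ, had the highest level per kb of exon and did not pass the test. It was at 169, 175 and 169.7 CPM in Cre– controls and 163, 197 and 117 CPM in PTEC DN RAR mice. Controls lay within a narrow range and PTEC DN RAR libraries on both sides of it (edgeR log2 fold change -0.11, SE 0.16, adjusted p = 0.622). The sign turned under pan-leukocyte scaling (0.077) and without PTEC DN RAR 3 (0.027).

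Pilrb1, the DAP12-coupled activating PILR, was at 26.6, 28.0 and 27.4 CPM in Cre– controls and 19.1, 18.3 and 15.0 CPM in PTEC DN RAR mice. All PTEC DN RAR libraries were below the controls, whose spread was small (edgeR log2 fold change -0.65, SE 0.12, adjusted p = 0.00331). Summed over the 6 activating members, the level was 408 to 451 CPM in Cre– controls and 263 to 360 CPM in PTEC DN RAR mice, and their median log2 fold change was -0.45.

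Of the 3 inhibitory members, 2 were lower and 0 higher, with a median log2 fold change of -0.71. Cd300lf, whose protein binds ceramide and phosphatidylserine, was at 55.6, 50.5 and 57.8 CPM in Cre– controls and 27.6, 26.5 and 32.8 CPM in PTEC DN RAR mice. The groups were far apart relative to their spread, and the mean fell from 54.6 ± 3.73 to 29.0 ± 3.38 CPM, which is 1.89-fold lower (edgeR log2 fold change -0.92, SE 0.11, adjusted p = 0.000551).

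Pilra, the inhibitory partner of Pilrb1, was at 160.4, 169 and 162 CPM in Cre– controls and 114, 105 and 80.9 CPM in PTEC DN RAR mice. Its libraries did not overlap between groups, and PTEC DN RAR 3 was the lowest (1.64-fold lower mean, edgeR log2 fold change -0.71, SE 0.12, adjusted p = 0.00295). Cd300a, a receptor for phosphatidylserine on apoptotic cells, was at 186, 148 and 146 CPM in Cre– controls and 115, 126 and 150.2 CPM in PTEC DN RAR mice. Here PTEC DN RAR 3 lay above 2 of the controls, and the difference did not pass the test (edgeR log2 fold change -0.30, SE 0.13, adjusted p = 0.101). Without that library the log2 fold change was -0.45 (edgeR adjusted p = 0.0294), without control 1 it was -0.18 (adjusted p = 0.264), and under pan-leukocyte scaling it was -0.086 (adjusted p = 0.703). Summed over the 3 inhibitory members, levels were 366 to 402 CPM in Cre– controls and 257 to 264 CPM in PTEC DN RAR mice.

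Genes of Ly6C-high monocytes, the inflammatory monocytes that enter injured tissue, were lower in the libraries in which the 5 members fell. Among PTEC DN RAR libraries the list was highest in PTEC DN RAR 3, where Cd300lb and Cd300lf were also highest but Trem1, Pilra and Pilrb1 were lowest. Of 8 such genes, 7 were lower and 0 higher (edgeR, adjusted p under 0.05), with a summed level of 3926 to 4227 CPM in Cre– controls and 1661 to 1701 CPM in PTEC DN RAR mice. Averaged over the list, log2 CPM was 8.10, 8.07 and 7.93 in Cre– controls against 6.50, 6.73 and 7.04 in PTEC DN RAR mice (exact permutation p = 0.1). Its defining gene Ly6c2 was the exception to the calls, at 65.2, 47.7 and 34.2 CPM in Cre– controls and 13.5, 24.0 and 41.5 CPM in PTEC DN RAR mice (edgeR log2 fold change -0.90, adjusted p = 0.0824). Of 7 resident macrophage genes 1 was higher and 0 were lower, with a median log2 fold change of 0.21. Whether the receptors differed within a monocyte or through the mixture of monocytes was not tested.

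**Figure D2:**
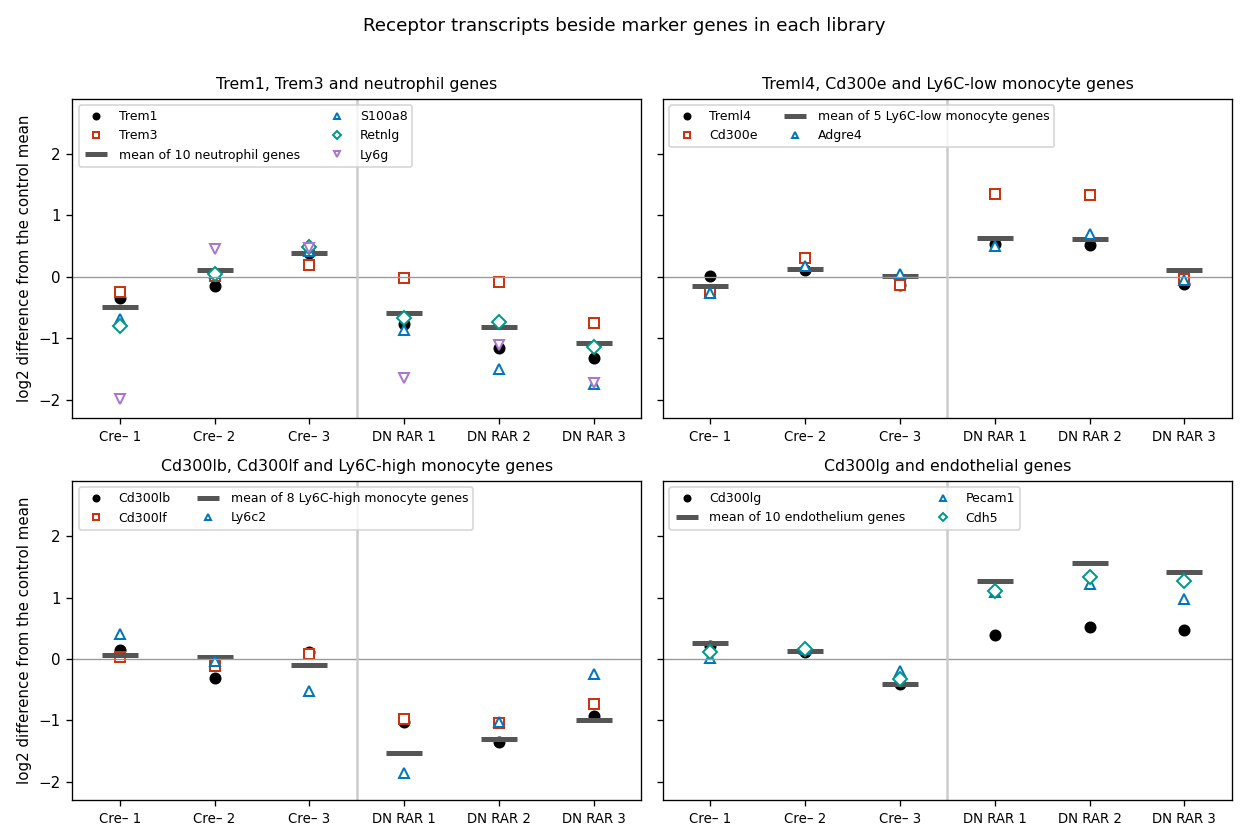
Difference of log2 CPM from the mean of the Cre– controls (vertical axis) in each of the 6 libraries (horizontal axis) for receptors, for single marker genes and, as gray bars, for the mean of the fixed marker list. Trem1 and the neutrophil list are both lowest in PTEC DN RAR 3, Treml4 and Cd300e are high in PTEC DN RAR 1 and 2 but not 3, and Cd300lg lies closer to the control mean than the endothelial list in all 3 PTEC DN RAR libraries.

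Cd300lg encodes nepmucin, a member that is found on endothelium and not on myeloid cells. Its level was low, at 14.5, 13.6 and 9.41 CPM in Cre– controls and 16.4, 17.8 and 17.2 CPM in PTEC DN RAR mice. All 3 PTEC DN RAR libraries lay above all controls, but the adjusted p was 0.0538 (edgeR log2 fold change 0.46, SE 0.16). Without control 3, the lowest control, the log2 fold change was 0.24 (edgeR adjusted p = 0.200). The endothelial genes were higher in the same libraries. Pecam1 was at 27.9, 31.0 and 24.0 CPM in Cre– controls and 58.6, 64.3 and 54.6 CPM in PTEC DN RAR mice (edgeR log2 fold change 1.10, adjusted p = 0.000355), and Cdh5 differed by 1.24 (adjusted p = 0.00051). The median log2 fold change of the 10 endothelial genes was 1.43, against 0.46 for Cd300lg, and control 3 was the lowest library in both. How much of Cd300lg came from endothelial RNA in the bead fraction was not tested.

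Ratios of counts within a library do not depend on how libraries are scaled, and they were used to compare members with each other. Pilra had 6.04, 6.04 and 5.91 counts per count of Pilrb1 in Cre– controls against 5.97, 5.74 and 5.40 in PTEC DN RAR mice. The inhibitory and the activating PILR thus fell nearly in step, with overlapping ratios. In the other pairs the ratios of the groups lay apart.

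The inhibitory Cd300lf had 0.329, 0.289 and 0.341 counts per count of the activating Cd300ld in Cre– controls against 0.169, 0.135 and 0.282 in PTEC DN RAR mice. PTEC DN RAR 3 lay just below the lowest control, where Cd300ld was also low. The inhibitory Cd300a had 1.45, 1.58 and 1.16 counts per count of the activating Cd300lb in Cre– controls against 2.02, 2.78 and 2.46 in PTEC DN RAR mice, so that each PTEC DN RAR library exceeded every control. Trem1 had 6.25, 5.93 and 7.64 counts per count of Trem3 in Cre– controls against 3.96, 3.16 and 4.47 in PTEC DN RAR mice, with no overlap. Per count of Treml4, Trem1 had 0.999, 1.06 and 1.85 counts in Cre– controls against 0.519, 0.401 and 0.552 in PTEC DN RAR mice, again with no overlap.

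**Figure D3:**
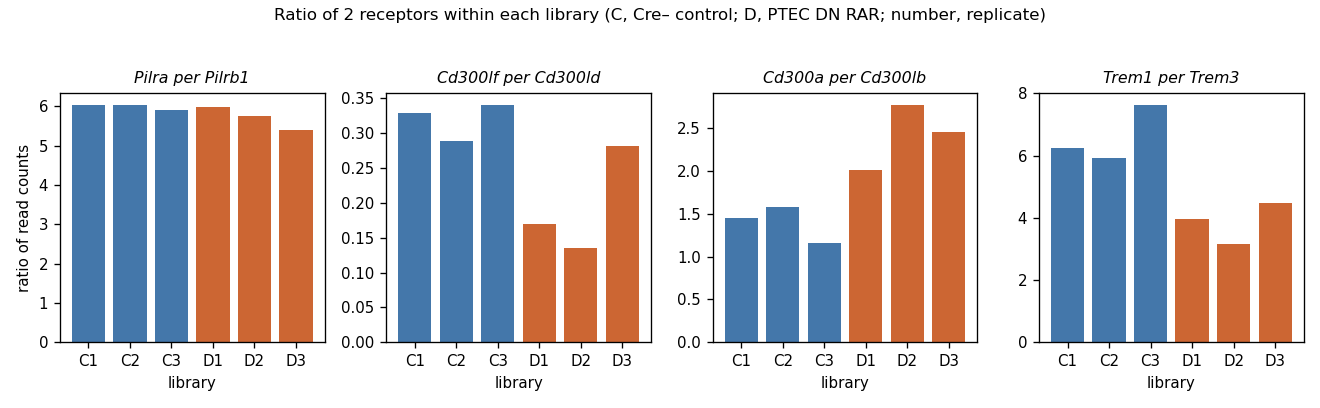
Ratio of read counts of 2 receptors (vertical axes, starting at 0) in each Cre– control (C, blue) and PTEC DN RAR (D, orange) library, numbered by replicate. Pilra per Pilrb1 lies between 5.40 and 6.04 in all libraries, while Cd300lf per Cd300ld and Trem1 per Trem3 are lower, and Cd300a per Cd300lb higher, in every PTEC DN RAR library.

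On chromosome 5 the neighbors Pilra, Pilrb1 and Pilrb2 were all lower in PTEC DN RAR mice. On chromosome 17 Trem1 fell, Trem3 and Treml4 did not pass the test, and Treml2, which lies beyond them, fell further than any member. Trem2, which lies beyond Treml2, was also lower. On chromosome 11 Cd300lb and Cd300lf fell while Cd300ld, which lies between them, overlapped between groups. Cd300e, also between Cd300lb and Cd300lf, was called higher, a call that was lost without some single libraries.

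**Figure D4:**
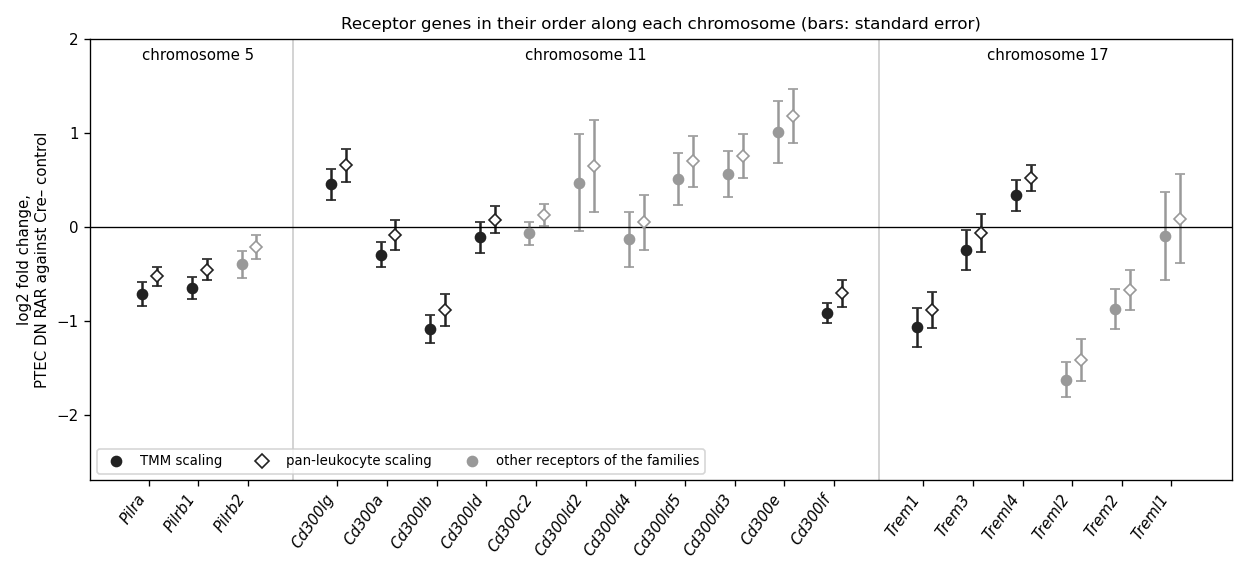
Log2 fold change of PTEC DN RAR against Cre– control (vertical axis, ± SE) for receptor genes in chromosomal order, with the 10 members in black, other receptors of the families in gray, TMM scaling as filled circles and pan-leukocyte scaling as open diamonds. Cd300lb, Cd300lf, Trem1, Pilra and Pilrb1 lie below 0 under both scalings, Cd300lg and Treml4 above, and Cd300ld changes side. Trem3 and Cd300a also lie below 0 under both scalings but did not pass the test under either.

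The other receptors of the families were taken from a fixed list, of which 11 genes were in the table and 10 were tested. Of these, 3 were lower and 1 higher (edgeR, adjusted p under 0.05), and the median log2 fold change was -0.08. Treml2 was at 53.4, 35.7 and 52.6 CPM in Cre– controls and 12.7, 14.6 and 18.6 CPM in PTEC DN RAR mice, a 3.09-fold lower mean with no overlap (log2 fold change -1.63, SE 0.19, edgeR adjusted p = 0.000544). Trem2, a lipid receptor of tissue macrophages, was at 336, 177 and 252 CPM against 152, 117 and 149.7 CPM (log2 fold change -0.87, SE 0.21, edgeR adjusted p = 0.0122). Its controls spread widely, yet all lay above the PTEC DN RAR libraries.

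Pilrb2, the near copy of Pilrb1 shown above, was at 26.6, 28.2 and 24.9 CPM in Cre– controls and 22.3, 22.1 and 16.0 CPM in PTEC DN RAR mice (log2 fold change -0.40, SE 0.14, edgeR adjusted p = 0.0498). This call was at the threshold and was lost under pan-leukocyte scaling (adjusted p = 0.224), with at least 10 counts in every library (adjusted p = 0.0604) and without any 1 library (adjusted p from 0.0543 to 0.0913). Pilrb2 had 1.00, 1.01 and 0.906 counts per count of Pilrb1 in Cre– controls against 1.17, 1.21 and 1.07 in PTEC DN RAR mice, and since 30.6% of its 50-base windows and 2.81% of its 100-base windows were shared with another gene, both counts may be incomplete. Cd300e, an activating receptor of monocytes, rose. It was at 20.4, 30.1 and 22.2 CPM in Cre– controls and 61.8, 61.3 and 23.6 CPM in PTEC DN RAR mice, so that PTEC DN RAR 3 again stayed within the controls (log2 fold change 1.01, SE 0.33, edgeR adjusted p = 0.0369). The adjusted p was 0.0805 with limma-voom and 0.00159 in edgeR without PTEC DN RAR 3, and it was 0.118, 0.112, 0.101 and 0.122 without PTEC DN RAR 1, PTEC DN RAR 2, control 1 and control 3.

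The adaptors themselves did not pass the test. Tyrobp was at 1155, 850 and 924 CPM in Cre– controls and 945, 769 and 726 CPM in PTEC DN RAR mice, with overlap (log2 fold change -0.26, SE 0.15, edgeR adjusted p = 0.184). Fcer1g was at 834 ± 74.5 and 816 ± 102 CPM (log2 fold change -0.03, edgeR adjusted p = 0.854), Hcst, which encodes DAP10, differed by -0.37 (adjusted p = 0.127) and Ptpn6 by -0.03 (adjusted p = 0.839). Of 17 adaptor and signaling genes tested, 5 were lower, 0 were higher, and the median log2 fold change was -0.25. The 5 were the kinases Btk (112 ± 5.72 against 68.8 ± 2.22 CPM, log2 fold change -0.70, edgeR adjusted p = 0.000486), Syk (-0.26, adjusted p = 0.0437) and Pik3cd (-0.25, adjusted p = 0.0471), the phosphatase Inpp5d (-0.30, adjusted p = 0.0281) and the exchange factor Vav3 (-0.33, adjusted p = 0.0342). Under pan-leukocyte scaling Btk alone of the 5 passed the test. The calls of the other 4 were also lost without single libraries, of Syk and Pik3cd without any 1 other than control 2 (edgeR adjusted p from 0.0543 to 0.0948), of Vav3 without control 2, control 3, PTEC DN RAR 1 or PTEC DN RAR 2 (0.067 to 0.104), and of Inpp5d without control 2, control 3 or PTEC DN RAR 2 (0.0514 to 0.063). With at least 10 counts in every library Syk (adjusted p = 0.058) and Pik3cd (0.0639) were lost, and with library size Vav3 (0.0551).

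Of the 3 ligand genes described here, 1 passed the test, with higher values in PTEC DN RAR mice. Npdc1, which encodes a ligand of PILRα, was at 7.76, 4.19 and 3.86 CPM against 11.9, 10.3 and 15.4 CPM (log2 fold change 1.24, SE 0.28, edgeR adjusted p = 0.00816), and 15.7% of its exon bases overlap Entpd2. Havcr1, which encodes KIM1, is made by injured tubules, and its transcript in the bead fraction was at 6.25, 9.73 and 13.8 CPM against 6.52, 10.5 and 7.35 CPM, with overlap (edgeR adjusted p = 0.457). Pglyrp1, a neutrophil ligand of TREM1, differed by 0.34 (adjusted p = 0.327 in the same test). Platelets, which carry some TREM-like receptors, left little trace, with Gp9 between 0.0212 and 0.64 CPM.

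Promoters are shown for the members that passed the test and fell at least 2-fold, Cd300lb and Trem1, as the 250 bases upstream of the transcription start in RefSeq (GRCm38.p6). The motif GAGGAA, the core bound by the myeloid factor PU.1, is in capitals where it occurs in the direction shown.
Cd300lb, chr11:114934372-114934621, minus strand: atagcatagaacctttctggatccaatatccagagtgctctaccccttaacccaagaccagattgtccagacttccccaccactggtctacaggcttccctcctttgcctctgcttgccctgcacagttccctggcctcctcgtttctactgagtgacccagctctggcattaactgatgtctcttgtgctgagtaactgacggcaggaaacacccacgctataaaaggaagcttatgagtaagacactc
Trem1, chr17:48232489-48232738, plus strand: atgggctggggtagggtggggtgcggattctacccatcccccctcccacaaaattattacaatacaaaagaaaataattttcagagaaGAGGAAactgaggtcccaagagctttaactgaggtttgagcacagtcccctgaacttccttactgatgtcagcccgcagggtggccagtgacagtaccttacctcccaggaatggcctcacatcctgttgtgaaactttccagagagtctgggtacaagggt
On both strands of the 250 bases upstream of the start, GAGGAA occurred in 6 of the 8 members that had a RefSeq window, and in 23.3% of all 32851 windows. TTGCNNAA, a C/EBP core, occurred in 3 members and 9.56% of windows, TGANTCA, an AP-1 core, in 0 and 6.75%, and AGGTCA, the core site of retinoic acid receptors, in 1 member (Treml4) and 14.0%. GAGGAA was found in Trem1, Cd300lf and Pilra but not in Cd300lb and Pilrb1 among the members that fell, and in Cd300ld, Treml4 and Cd300a among those that did not pass the test. These are matches of letters only, and Trem3 and Cd300lg had no window.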

How the data were processed

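The authors sequenced polyA RNA of CD11B+ cells, with 1 library per mouse. The deposited values are raw read counts per Ensembl gene. The submitters' processing notes name STAR 2.5.0a, HTSeq 0.6.1 and GRCm38. Reads with more than 1 alignment (42.93% to 47.75% of alignments per library) were not counted on genes. Lines repeating an identifier (9 of 46612) were collapsed, and 46091 of 46603 genes were found in GENCODE M21. Libraries of 1 genotype differed beyond sampling noise (chi-square per degree of freedom of at least 27.1), so each counted as 1 sample.

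After filterByExpr and TMM scaling, counts were tested by genotype with glmQLFit and glmQLFTest of edgeR 4.0.16 (R 4.3.3), with p-values adjusted by Benjamini and Hochberg across 15440 genes at a threshold of 0.05. CPM per kb used the merged exon length of GENCODE M21. Marker lists were summarized as mean log2 CPM (prior count 2) and compared by two-sided exact permutation tests, for which 0.1 is the smallest p with 3 against 3. Alternatives were DESeq2 1.42.0, limma-voom (limma 3.58.1), no filter or a minimum of 10 counts in each library, scaling by library size, DESeq2 size factors or 25 pan-leukocyte genes, the replicate number as a block, and leaving out each library. Scripts were tested on simulated data.

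Members and lists were chosen with earlier results of these data known. Named genes were all members, listed family, adaptor and ligand genes with an adjusted p under 0.05, and a fixed set of adaptors, ligands and markers. Of the listed family, adaptor and ligand genes, Cd300c, Zap70 and Clec4g did not pass the filter, Cd300lh and Cd300ld3 are 1 gene, and Treml6 and Cd99 were not matched. A gene of the ligand list is not reported here, though counts over the family, adaptor and ligand genes together include it. Marker lists not described in the report gave medians of 0.16 (dendritic cell, 1 lower and 3 higher of 7), -0.34 (NK cell, 0 of 5 called) and 1.42 (B cell, 1 higher of 4). Only 1 of 5 platelet genes was tested, and it was not called. Same-numbered libraries of the genotypes had correlations of deviations of -0.0147, 0.2111 and 0.0286, against -0.1807 to 0.1505 between differently numbered ones. So few libraries cannot show whether the numbers pair mice, and the main test treated the mice as unpaired. P-values measure the spread between these libraries.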

Additional observations from a re-analysis of the deposited data

How the results depend on the processing

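The 5 members that fell (Cd300lb, Trem1, Pilrb1, Cd300lf and Pilra) passed the test under all 14 alternatives, with log2 fold changes from -1.26 to -0.89, -1.24 to -0.87, -0.72 to -0.46, -1.06 to -0.71 and -0.82 to -0.53. With the replicate number as a block, 5 members were lower and 0 higher, and no count moved by over 1.5 times, though the calls of Syk (edgeR adjusted p = 0.0609) and Vav3 (0.0551) were lost. Leaving out 1 library gave 5 to 6 lower members, the sixth being Cd300a without PTEC DN RAR 3. The number of higher members was 0 in the report, 1 (Cd300lg) with limma-voom, with at least 10 counts in every library and with library size, and 2 (with Treml4) under pan-leukocyte scaling. Without 1 library it was 0 to 1, namely Cd300lg without control 1 and Treml4 without PTEC DN RAR 3. Cd300ld reversed to 0.077 under pan-leukocyte scaling (edgeR adjusted p = 0.699) and to 0.027 without PTEC DN RAR 3 (edgeR adjusted p = 0.867), within a range of -0.30 to 0.027 without 1 library. Of the family, adaptor and ligand genes together, 9 were lower and 2 higher. These counts were 4 and 4 under pan-leukocyte scaling, and 1 was higher with limma-voom. Without 1 library they ranged from 4 to 8 lower, with 4 without control 3 or PTEC DN RAR 2 and 5 without PTEC DN RAR 1, and from 1 to 4 higher, with 1 without control 1, control 3, PTEC DN RAR 1 or PTEC DN RAR 2 and 4 without PTEC DN RAR 3. Pan-leukocyte scaling moved the median of all genes to 0.23 and left 809 genes lower and 4860 higher, against 2636 and 3640. Under TMM the 25 pan-leukocyte genes were themselves lower (7 lower and 0 higher, median log2 fold change -0.20), so scaling on them shifts fold changes upward. Why these genes were lower was not tested, and neither was the cause of the other shifts. Marker lists kept their direction under the scalings and prior count tried, and the platelet score, which rests on 1 gene, changed sign without control 2 or control 3.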
